A study of Equus caballus with 45 samples.

Results

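Equine macrophages given the conditioned medium (CM) of mesenchymal stromal cells (MSC) activated through STING were compared with macrophages given the CM of resting MSC, across all genes. The comparison took the 3 macrophage libraries of STING-MSC-CM and the 3 of resting MSC-CM. They came from a table of 33 joint cell libraries, in a series of 45 libraries. The pairing used the name in the labels (PC, ORC or AG1), read here as the horse that gave the MSC. The labels do not settle this reading. Of these names only PC recurs among the MSC libraries of the series, and titles of macrophages without MSC medium also carry ORC. The macrophages were grown from the blood of 1 horse with M-CSF at 30 ng/ml for 5 days. On this reading the libraries of a group differ in the MSC donor of the medium and not in the macrophage donor. All 6 cultures also received IL-1β and TNF-α (10 ng/ml in the labels, 20 ng/ml in the methods). The STING group received medium of MSC exposed for 2 h to 2′3′-cGAMP, the natural ligand of STING (10 ng/ml in the labels, 10 µg/ml in the series design), and the resting group received medium of MSC without an agonist. Medium was applied for 24 h, 1 part to 3 parts of macrophage medium, followed by a wash and a further 24 h of culture before RNA was taken. Macrophages given medium of MSC activated with the TLR3 ligand poly I:C, at the same dose as the cGAMP (n = 3), served as a further condition, and 1 library each from macrophages with the cytokines only and with no addition is given as a single value.

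STING is an adaptor on the endoplasmic reticulum that is switched on by cyclic dinucleotides and drives type I interferon and NF-κB signaling. Here the agonist acted on the MSC, and the macrophages saw what those MSC released. Macrophages of the joint clear debris, present antigen through MHC class II, make complement and matrix proteases, and release the cytokines that act on cartilage and synovium. Levels are given as CPM, counts per 1000000 counts of a library after scaling by edgeR's TMM factors, in the order of the MSC donors AG1, ORC and PC.

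Total counts ran from 23525704 to 40403096 in the resting libraries and from 26535024 to 29746987 in the STING libraries, so a count of 3, taken as the floor of detection, was 0.0743 to 0.128 CPM. Floors cover counting error only. Macrophage markers summed to between 10215 and 12357 CPM with resting MSC-CM and between 10819 and 13511 CPM with STING-MSC-CM, and CSF1R, the M-CSF receptor, was present in all 6 libraries at 572 to 876 CPM. T and NK cell markers summed to 497 to 581 CPM against 471 to 520 CPM, B cell markers to 71.1 to 84.8 CPM against 88.1 to 99.7 CPM, and stromal markers to 9.05 to 16.9 CPM against 7.24 to 16.4 CPM. Neutrophil markers summed to 291 to 590 CPM against 404 to 564 CPM and dendritic cell markers to 145 to 280 CPM against 140 to 324 CPM, with CLEC9A at 0 in all 6 libraries. Single genes made up most of some sums, CSF3R that of neutrophils (285 to 585 CPM) and JCHAIN that of B cells (62 to 91 CPM). No gene of these 6 marker lists passed the test. Fewer cells of a type and less RNA per cell cannot be told apart in these bulk libraries.

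With STING-MSC-CM, 42 genes were higher (0.279%) and 38 lower (0.252%) than with resting MSC-CM, 80 of the 15052 genes tested (0.531%; edgeR's quasi-likelihood test with the MSC donor as a block, adjusted p under 0.05 over all genes). Genes that rose included the lipase LIPG, the complement proteases C1S and C1R, the sterol enzyme LSS, the itaconate enzyme ACOD1, the class II chaperone HLA-DMB and the PD-1 ligand PDCD1LG2. Genes that fell included the matrix cytokine SPP1, the urokinase receptor PLAUR, the calcium-binding protein S100A6, the lectin SIGLEC15 and the phosphatase DUSP4. The changes were small, with a log2 fold change of 0.46 to 1.32 among the higher genes (median 0.67) and of −1.55 to −0.41 among the lower genes (median −0.68), and 12 genes passed 1 in either direction. All 80 moved the same way in the 3 donors. The 3 STING libraries lay apart from the 3 resting libraries for 20 of the 42 higher and 29 of the 38 lower genes, against 4.75% and 5.21% of all genes tested. The 80 genes were picked by a test on these same libraries. Their common direction and their separation are therefore no separate support for the calls. The median change of all genes was −0.004 (log2), and 49.0% of them were higher.

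These calls rest on the pairing of the libraries by MSC donor and on single libraries. Without the donor block edgeR called 0 genes, with 717 at an unadjusted p under 0.05, and DESeq2 without the block called 9, whereas DESeq2 with the block called 348. Leaving out the STING library of donor ORC, the resting library of donor PC or the resting library of donor AG1 also left 0 genes in edgeR, with 1155, 1633 and 1363 at an unadjusted p under 0.05, and leaving out all libraries of donor PC left 0, with 1597. Without the other libraries of the 3 conditions the count was 57 to 339. P-values of the blocked fit measure the spread left between cultures of 1 macrophage source once the differences between donors are taken out.

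**Figure D1:**
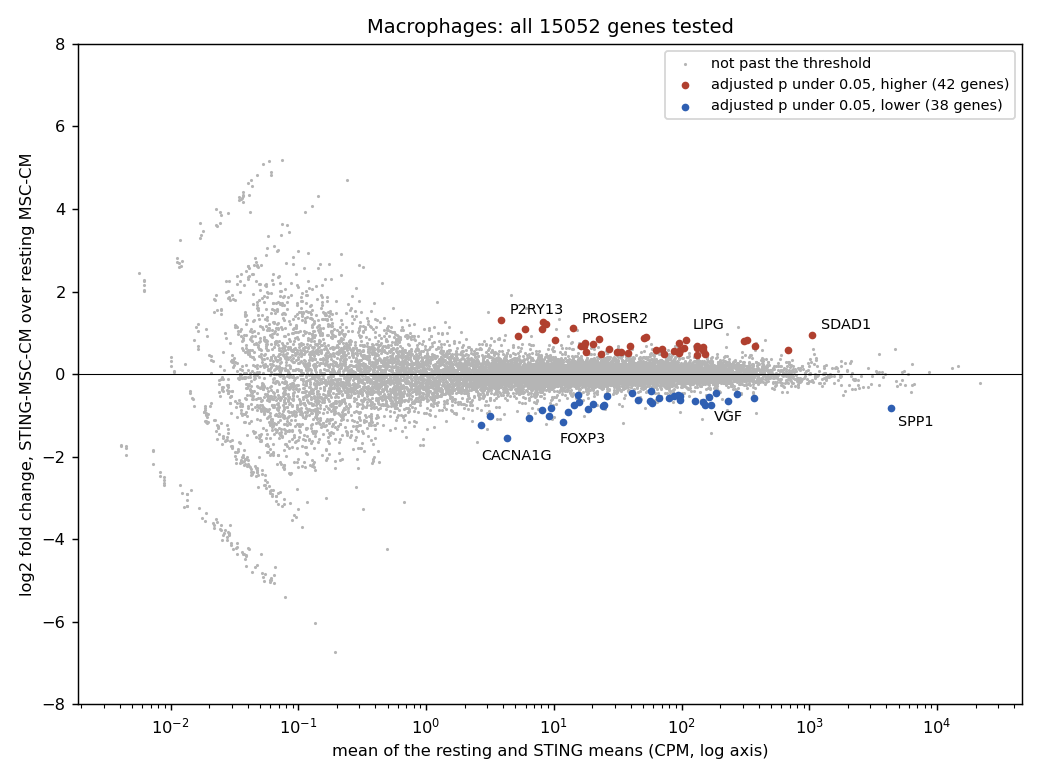
Fitted log2 fold change (STING-MSC-CM over resting MSC-CM, vertical axis) against mean level in CPM (log axis) for the 15052 genes tested. The 42 higher and 38 lower genes past the threshold lie between −1.55 and 1.32, while the wide scatter at the left comes from genes near or below the floor, whose fitted values depend on the prior count.

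LIPG and LSS, which act on lipoprotein lipids and in sterol synthesis, both rose. LIPG, endothelial lipase, which cleaves phospholipids of lipoproteins, stood at 61.6, 89.8 and 80.5 CPM with resting MSC-CM and at 113, 150 and 151 CPM with STING-MSC-CM. Every STING library exceeded every resting library. The fold change was 1.78 (edgeR adjusted p = 0.00847), and the libraries with cytokines only and no addition stood at 118 and 116 CPM, among the STING values.

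LSS, lanosterol synthase, which closes the ring of the sterol skeleton, stood at 19.0, 18.5 and 26.5 CPM with resting MSC-CM and at 25.7, 31.9 and 40.2 CPM with STING-MSC-CM. It rose in each donor although the groups overlapped, because donor PC was high in both (log2 fold change 0.60 ± 0.092 SE, edgeR adjusted p = 0.0185). Of the 28 sterol synthesis and uptake genes tested, LSS was the only one past the threshold and 24 were higher, beside 0.279% and 49% of all genes. At an unadjusted p under 0.05, 17 were higher and 1 lower (7.24% and 6.25% of all genes). The median log2 fold change of the list was 0.20, at 0.18 in AG1, 0.18 in ORC and 0.23 in PC. MSMO1 (132, 112 and 128 CPM against 162, 138 and 162 CPM), which acts after LSS, and FDFT1 (62.2, 55.1 and 64.6 CPM against 76.9, 69.8 and 83.0 CPM), the squalene synthase, did not overlap between the groups and missed the threshold, with edgeR adjusted p-values of 0.0791 and 0.083; both were chosen after their values were seen. SREBF2, the transcription factor of the pathway, stood at 223, 175 and 229 CPM against 263, 217 and 244 CPM (edgeR adjusted p = 0.256). Cholesterol export and LXR target genes showed no such shift, with 9 of 20 higher, none past the threshold and a median of −0.07.

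Among the 22 fatty acid synthesis genes none passed, 15 were higher and the median was 0.18. ACLY, FASN and ME1, the members with the highest CPM (a scale not corrected for gene length), had log2 fold changes of 0.21, 0.25 and 0.29 and edgeR adjusted p-values of 0.244, 0.178 and 0.129.

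Both serine proteases of the first complement component rose. C1S was at 21.9, 37.8 and 31.4 CPM with resting MSC-CM and at 35.1, 58.6 and 53.3 CPM with STING-MSC-CM, higher in each donor by 0.69 ± 0.091 (log2, SE; edgeR adjusted p = 0.0131). C1R was at 48.0, 93.3 and 76.0 CPM against 101, 125 and 132 CPM, with no overlap (log2 fold change 0.75, edgeR adjusted p = 0.0425). The cytokines-only and no-addition libraries stood within the STING ranges, at 54.7 and 53.8 CPM for C1S and at 124.5 and 125.2 CPM for C1R. Of the 18 complement genes tested 13 were higher, beside 49% of all genes, with a median log2 fold change of 0.25. C1S and C1R alone passed the threshold, beside 0.279% of all genes that rose past it. Their partner C1QC and the inhibitor SERPING1 were higher in each donor, by 0.64 and 0.60 on the log2 scale, and missed the threshold with edgeR adjusted p-values of 0.0638 and 0.0678. ITGAX, C5AR1 and CFP, the members with the highest CPM, had log2 fold changes of 0.02, 0.04 and 0.20.

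Antigen presentation genes past the threshold were HLA-DMB and LAMP3. HLA-DMB, part of the chaperone that loads peptide onto class II molecules, stood at 157, 195 and 321 CPM with resting MSC-CM and at 266, 347 and 554 CPM with STING-MSC-CM. The ratio was alike in the 3 donors while the level in donor PC was high under both media (log2 fold change 0.79 ± 0.12 SE, edgeR adjusted p = 0.0185). LAMP3, a lysosomal membrane protein of mature dendritic cells, was at 10.7, 16.4 and 13.2 CPM against 21.6, 22.0 and 19.9 CPM (log2 fold change 0.67, edgeR adjusted p = 0.0409), beside dendritic cell marker sums that overlapped between the groups and consist mostly of CCR7. The cytokines-only and no-addition libraries stood at 452 and 498 CPM for HLA-DMB, within the STING range, and at 25.6 and 21.3 CPM for LAMP3. Of 9 dendritic cell genes tested, LAMP3 included, 3 were higher and none lower at an unadjusted p under 0.05, beside 7.24% and 6.25% of all genes. FLT3, the growth factor receptor of dendritic cells, stood at 4.44, 3.58 and 2.84 CPM in the resting libraries and at 6.90, 5.66 and 5.09 CPM in the STING libraries (edgeR adjusted p = 0.0748). FCER1A was also higher in each donor. CCR7 (268.9, 137.3 and 233.5 CPM against 306.5, 129.8 and 194.1 CPM) and ZBTB46 had no common direction. The part of these cells in the LAMP3 and HLA-DMB results was not tested. Of 19 class II pathway genes, 2 rose and none fell, beside 0.279% and 0.252% of all genes, and 14 were higher, beside 49%. The invariant chain CD74 was at 3286, 3500 and 3992 CPM against 3268, 3524 and 4494 CPM and CTSS, its protease, at 4075, 4008 and 3568 CPM against 3735, 3976 and 3943 CPM, neither with a common direction in the donors. In the class I pathway none of 15 genes passed, and the median was 0.05.

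**Figure D2:**
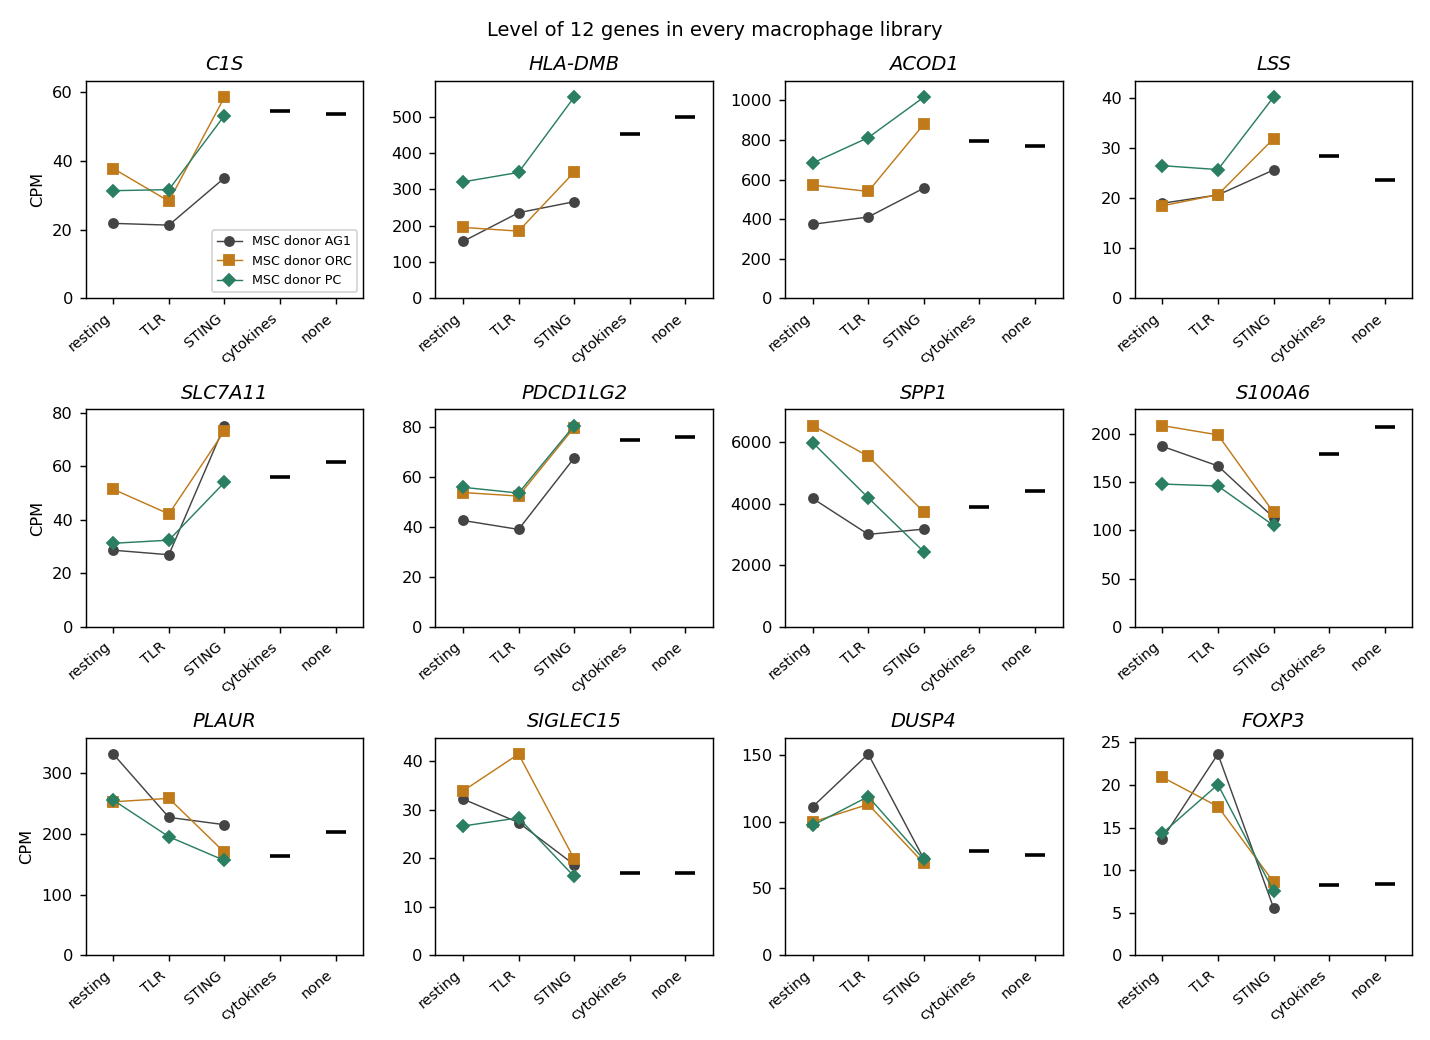
CPM of 12 genes (vertical axes, each from 0) in every macrophage library, by condition of the medium, with points of 1 MSC donor joined by a line and bars for the single libraries with cytokines only and no addition. In each panel every donor's STING value lies on the same side of its resting value, as for HLA-DMB at 266, 347 and 554 CPM against 157, 195 and 321 CPM.

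Several genes that act on immune signaling rose. PDCD1LG2, which encodes PD-L2, a ligand of the inhibitory receptor PD-1, was at 42.6, 53.8 and 55.9 CPM with resting MSC-CM and at 67.6, 79.8 and 80.6 CPM with STING-MSC-CM, a fold change of 1.50 without overlap (edgeR adjusted p = 0.00847). ACOD1, which makes the anti-inflammatory metabolite itaconate, was at 374, 572 and 684 CPM against 557, 880 and 1016 CPM (log2 fold change 0.59 ± 0.088 SE, edgeR adjusted p = 0.0185). NLRP12, a cytosolic sensor of myeloid cells that restrains NF-κB, was at 9.84, 23.8 and 15.5 CPM against 21.4, 32.6 and 31.3 CPM (log2 fold change 0.85, edgeR adjusted p = 0.0154). For ACOD1 and NLRP12 the donors spread widely under either medium, and the groups overlapped although each donor rose. The no-addition library stood at 75.8 CPM for PDCD1LG2, 768 CPM for ACOD1 and 35.9 CPM for NLRP12, each within or above the range of the STING libraries. P2RY13, an ADP receptor, had the highest fold change among the genes past the threshold, from 0.863, 3.36 and 2.46 CPM to 2.41, 7.82 and 6.13 CPM (2.49-fold). MALT1, the paracaspase of NF-κB signaling, was at 109, 97.6 and 136 CPM against 191, 168 and 177 CPM (log2 fold change 0.66, edgeR adjusted p = 0.0239). It stood at 107 and 110 CPM with cytokines only and with no addition, within the resting range, and was named after its values were seen.

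Further genes that rose act in biosynthesis and metabolism. SDAD1, a factor of large ribosomal subunit assembly, rose from 492, 735 and 909 CPM to 1004, 1341 and 1800 CPM, 1.94-fold (edgeR adjusted p = 0.00847). The cytokines-only and no-addition libraries stood at 1354.5 and 1304.4 CPM, within the STING range. SLC7A11, the cystine importer that feeds glutathione synthesis, was at 28.7, 51.5 and 31.3 CPM against 75.3, 73.3 and 54.0 CPM (log2 fold change 0.90, edgeR adjusted p = 0.0218). It stood at 55.9 and 61.8 CPM with cytokines only and with no addition, within the STING range. It was the 1 gene past the threshold among 26 of antioxidant and iron handling, beside 0.279% of all genes that rose past it. In this list HMOX1, FTL and PRDX1 had log2 fold changes of 0.15, 0.14 and 0.20. DPYD, which starts pyrimidine breakdown, NPL, which cleaves sialic acid, and HS3ST3A1, which sulfates heparan sulfate, rose by 0.88, 0.47 and 1.09 on the log2 scale. PROSER2 and LY5 also rose, by 1.11 and 0.68.

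Among the genes that fell, SPP1, PLAUR and SIGLEC15 encode proteins of matrix, adhesion and osteoclast biology. SPP1, osteopontin, a secreted matrix protein and macrophage cytokine, was at 4173, 6538 and 5986 CPM with resting MSC-CM and at 3176, 3730 and 2442 CPM with STING-MSC-CM. All STING libraries lay under all resting libraries, at a ratio of 0.566 (edgeR adjusted p = 0.0426). PLAUR, the urokinase receptor, was at 331, 253 and 256 CPM against 215, 170 and 156 CPM (log2 fold change −0.64, edgeR adjusted p = 0.0279). SIGLEC15, a sialic acid-binding lectin required for osteoclast fusion, was at 32.3, 33.9 and 26.7 CPM against 18.7, 19.9 and 16.3 CPM, with nearly the same ratio in each donor (log2 fold change −0.76 ± 0.11 SE, edgeR adjusted p = 0.0142). The cytokines-only and no-addition libraries stood at 3906 and 4412 CPM for SPP1. They stood within the STING ranges for PLAUR (164 and 204 CPM) and SIGLEC15 (17.0 and 17.1 CPM).

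Of 20 osteoclast genes 1 fell and none rose, beside 0.252% and 0.279% of all genes, with a median log2 fold change of −0.13. At an unadjusted p under 0.05, 5 of the 20 were lower, beside 6.25% of all genes, and 2 were higher, beside 7.24%. DCSTAMP, the fusion protein, was higher in all STING libraries (233, 309 and 338 CPM against 340, 410 and 456 CPM, edgeR adjusted p = 0.0676). Of 21 matrix proteases and inhibitors 1, PLAUR, fell and none rose, beside 0.252% and 0.279% of all genes. At an unadjusted p under 0.05, 5 were lower and none higher. In all 3 donors 10 were lower and 5 higher, beside 17.4% and 17.5% of all genes. MMP9 was at 25395, 25098 and 18618 CPM against 23738, 20698 and 15317 CPM (edgeR adjusted p = 0.627), where the count of the resting AG1 library is written with 3 digits in the table. MMP1 (338, 221 and 181 CPM against 120, 107 and 59.0 CPM) and MMP12 (574, 304 and 645 CPM against 278, 236 and 262 CPM), a collagenase and the macrophage elastase, did not overlap between the groups and missed the threshold, with edgeR adjusted p-values of 0.16 and 0.0944; they were chosen after their values were seen.

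S100A6, a calcium-binding protein of the cytoplasm, fell from 187, 209 and 148 CPM to 113, 119 and 105 CPM (log2 fold change −0.68 ± 0.082 SE, edgeR adjusted p = 0.00847). The STING libraries lay below all resting libraries and below the cytokines-only and no-addition libraries at 179 and 207 CPM. Of 18 S100 and alarmin genes 16 were lower, 1 past the threshold, with a median log2 fold change of −0.31. S100A11 (722, 829 and 751 CPM against 495, 610 and 618 CPM) just missed it (edgeR adjusted p = 0.0553), whereas VCAN was at 464, 1114 and 1356 CPM against 537, 2101 and 1198 CPM, with no common direction.

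DUSP4, a phosphatase that switches off MAP kinases, fell from 111, 99.7 and 97.3 CPM to 72.1, 68.7 and 71.7 CPM (log2 fold change −0.53 ± 0.081 SE, edgeR adjusted p = 0.0185). The cytokines-only and no-addition values of 77.8 and 74.8 CPM lay near the STING libraries, and the TLR-MSC-CM libraries, at 151, 113 and 119 CPM, lay above. It was the 1 gene past the threshold among 29 early response genes, beside 0.252% of all genes that fell past it. In this list 27 were lower, with a median of −0.19 (−0.23 in AG1, −0.13 in ORC and −0.16 in PC). ATF3, EGR2 and JUNB, those with the highest CPM, had log2 fold changes of −0.28, −0.01 and −0.14.

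**Figure D3:**
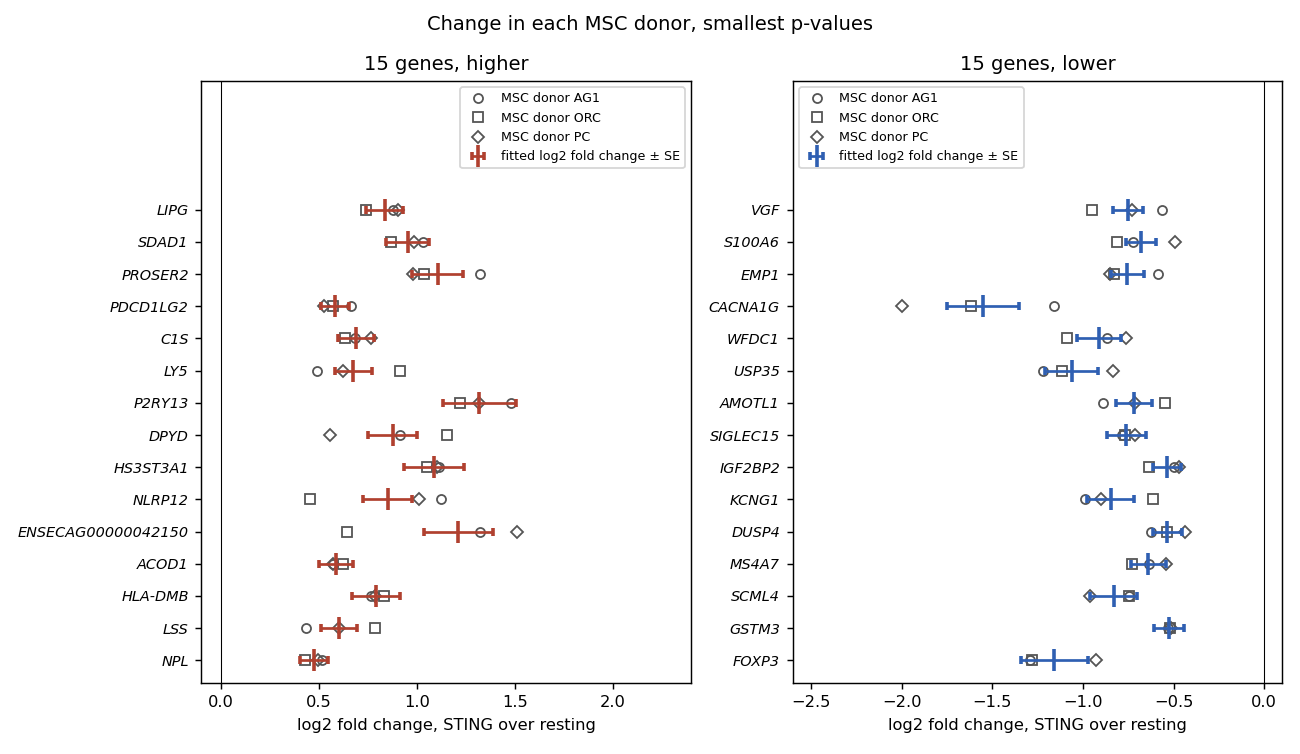
Log2 ratio of CPM, STING over resting, in each MSC donor (open symbols) with the fitted log2 fold change and its SE for the 15 higher and 15 lower genes with the smallest p-values. All donors lie on 1 side of 0 for each gene, as the naming rule required. The spread among donors is narrow for SIGLEC15 and GSTM3 and wide for CACNA1G, which ran from 6.14, 8.29 and 4.58 CPM to 2.74, 2.70 and 1.15 CPM.

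FOXP3, the defining transcription factor of regulatory T cells, fell from 13.7, 20.9 and 14.3 CPM to 5.60, 8.62 and 7.54 CPM (log2 fold change −1.16 ± 0.18 SE, edgeR adjusted p = 0.0218). The cytokines-only and no-addition libraries stood at 8.30 and 8.39 CPM. Of 21 T and NK cell genes tested FOXP3 alone fell and none rose, beside 0.252% and 0.279% of all genes, and the median was −0.09. CTLA4, another gene of regulatory T cells, was at 8.83, 7.07 and 9.70 CPM against 6.04, 5.30 and 6.06 CPM (edgeR adjusted p = 0.0748) and CD4 at 165, 290 and 412 CPM against 288, 479 and 544 CPM (edgeR adjusted p = 0.0553), in opposite directions. The summed T and NK cell markers overlapped between the groups, and the part of such cells in the FOXP3 result was not tested.

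The other genes with the smallest p-values among those that fell had varied roles. VGF, the precursor of secreted neuropeptides, was at 125, 298 and 156 CPM against 84.7, 154 and 93.9 CPM and EMP1, a membrane protein of the PMP22 family, at 147, 279 and 219 CPM against 97.6, 158 and 121 CPM, with the same edgeR adjusted p of 0.00847. Donor ORC stood highest under both media in either gene. The cytokines-only and no-addition libraries stood within the resting ranges, at 217 and 275 CPM for VGF and at 183 and 224 CPM for EMP1. CACNA1G, a T-type calcium channel, had the lowest log2 fold change among the genes past the threshold, at −1.55 ± 0.20 (SE). WFDC1, USP35, AMOTL1, IGF2BP2, KCNG1, MS4A7, SCML4 and GSTM3 fell by 0.91, 1.06, 0.72, 0.54, 0.85, 0.64, 0.83 and 0.53 on the log2 scale. Further genes that fell, named after their values were seen, were the leukotriene B4 receptor LTB4R (190, 188 and 203 CPM against 126, 144 and 131 CPM), the mitochondrial arginase ARG2 (87.0, 91.7 and 60.1 CPM against 53.5, 56.7 and 48.8 CPM) and the mitochondrial membrane protein TSPO (63.6, 56.8 and 46.2 CPM against 37.2, 36.3 and 34.6 CPM), none of which overlapped between the groups.

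Of 33 inflammatory cytokine and chemokine genes, 4 were higher and 11 lower in all 3 donors (17.5% and 17.4% of all genes). On the fitted change 25 were lower, but only ACOD1, which rose, passed the threshold, and the median change was −0.47 in AG1, −0.28 in ORC and 0.003 in PC. IL1B was at 410, 424 and 77.7 CPM with resting MSC-CM and at 137, 237 and 78.9 CPM with STING-MSC-CM (edgeR adjusted p = 0.175). CSF3, the granulocyte growth factor, was at 58.5, 85.8 and 7.90 CPM against 17.1, 32.0 and 7.68 CPM (log2 fold change −1.19 ± 0.24 SE, edgeR adjusted p = 0.0598). In both genes the donors AG1 and ORC were lower with STING-MSC-CM, while donor PC was low under either medium and about equal. The chemokines CCL2, CXCL8 and CCL8, with the highest CPM in the list, had log2 fold changes of −0.42, −0.27 and −0.25 and edgeR adjusted p-values of 0.111, 0.478 and 0.343. IL6 was at 71.6, 76.2 and 69.8 CPM against 44.6, 102 and 114 CPM and TNF at 60.9, 29.1 and 30.5 CPM against 46.8, 27.5 and 35.1 CPM, without a common direction, and both were chosen after their values were seen. IL4 and IL5 were at 2.66 to 5.05 CPM and 3.43 to 5.94 CPM with resting MSC-CM and at 3.24 to 5.19 CPM and 3.35 to 4.01 CPM with STING-MSC-CM (edgeR adjusted p = 0.994 and 0.657).

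Interferon-stimulated genes, the classical targets downstream of STING in a cell that senses the agonist itself, had list medians of either sign in the donors. Of 55 tested, 48 were higher and none passed the threshold. At an unadjusted p under 0.05, 11 were higher and none lower, beside 7.24% and 6.25% of all genes, and 16 were higher and none lower in all 3 donors, beside 17.5% and 17.4%. The median change was 0.14 (log2), with 0.50 in AG1, −0.15 in ORC and 0.06 in PC. ISG15 was at 65.9, 251 and 85.8 CPM against 113, 110 and 66.7 CPM and MX1 at 138, 557 and 331 CPM against 252, 419 and 264 CPM, so that AG1 was higher and ORC and PC lower; both were chosen after their values were seen. CXCL11, a chemokine of the same list chosen after its values were seen, was higher in each donor (159, 495 and 348 CPM against 399, 590 and 685 CPM) and missed the threshold (edgeR adjusted p = 0.0787).

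**Figure D4:**
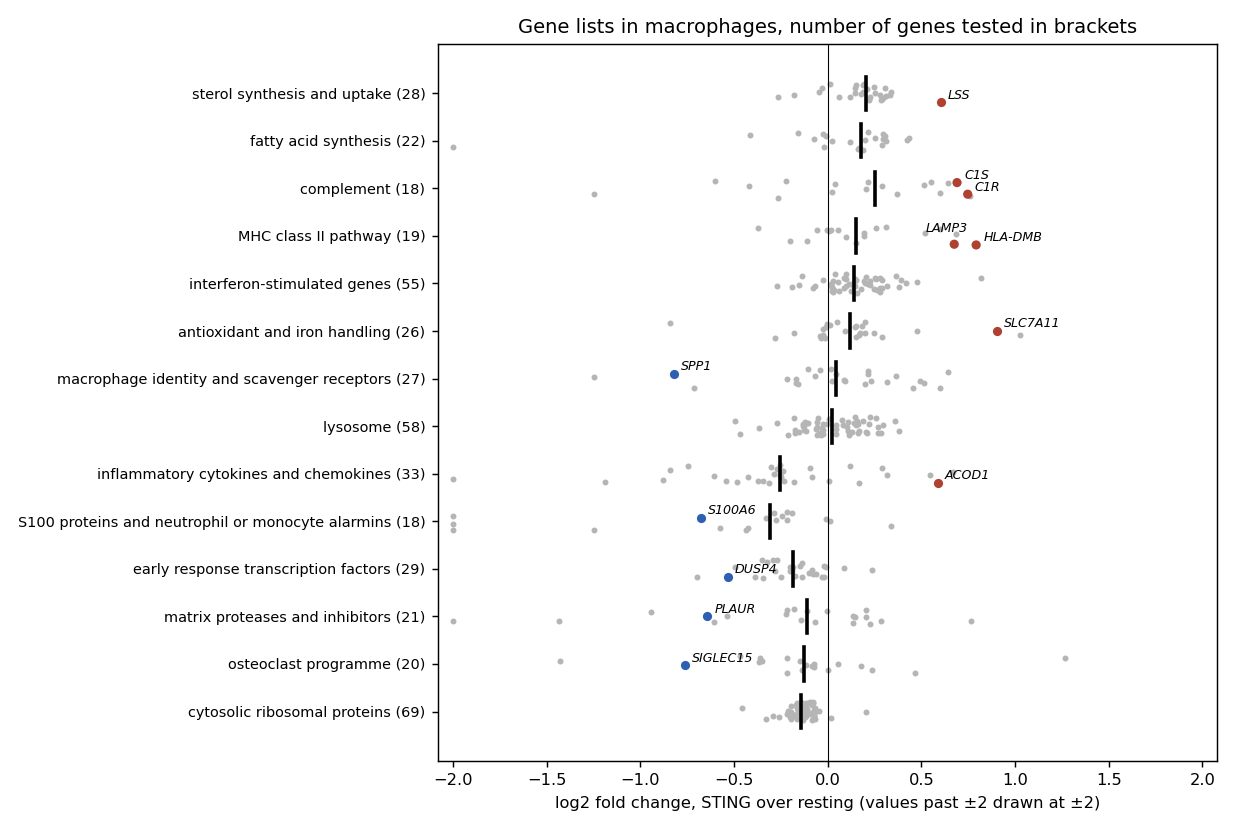
Log2 fold change (STING over resting, horizontal axis, values past ±2 drawn at the edge) of each tested gene in 14 lists, with the list median as a black bar and genes past the threshold colored and named. Medians run from −0.31 for S100 and alarmin genes to 0.25 for complement, with at most 2 colored genes in a list.

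No gene of the housekeeping lists passed the threshold. Cytosolic ribosomal protein genes were lower in 67 of 69 cases, with a median of −0.14 (−0.24 in AG1, −0.18 in ORC and 0.006 in PC). RPS2, RPL4 and RPLP0 had log2 fold changes of 0.02, −0.09 and −0.15. DNA replication and mitosis genes had medians of −0.004 and −0.02 with none past the threshold among 53 and 51 genes, and the 58 lysosome genes a median of 0.03. Of 27 macrophage identity genes SPP1 alone passed. GPNMB, a glycoprotein of lipid-laden macrophages, was at 4194, 8246 and 5647 CPM against 6648, 7091 and 6495 CPM and LGMN, a lysosomal protease, at 2344, 4873 and 4237 CPM against 5257, 5896 and 5325 CPM (edgeR adjusted p = 0.585 and 0.13). The mannose receptor MRC1 was at 2512, 2334 and 3975 CPM against 3060, 4711 and 4513 CPM (edgeR adjusted p = 0.135).

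The study's own cut-offs (unadjusted p up to 0.05, absolute log2 fold change from 2) were applied there to DESeq2. In DESeq2 they were passed here by 51 of 15052 genes with the donor block and by 62 without it. In edgeR with the block they were passed by 56 genes (0.372%), 23 higher (0.153%) and 33 lower (0.219%), of which none had an adjusted p under 0.05. In 39 of them 1 group lay at or under the floor in all its libraries and in 1 both groups did. The genes with the most extreme fitted change had at most 30 counts in a library. AANAT, SYT14, SLC39A4 and TMOD4 had 0 counts in the resting libraries, and 5, 0 and 5, 3, 1 and 5, 4, 6 and 0, and 4, 2 and 1 counts in the STING libraries. ACAN, IL9 and ABLIM3 had 10, 2 and 5, 10, 2 and 1, and 9, 2 and 2 counts in the resting libraries and 0 in the STING libraries. Of 3 genes known by Ensembl identifier only, ENSECAG00000012244 went from 0 to 3, 2 and 3 counts, ENSECAG00000010598 from 1, 12 and 23 to 0, and ENSECAG00000035652 from 30 counts in donor PC alone to 0. No fold change is given for these genes.

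Against TLR-MSC-CM, STING-MSC-CM gave 213 higher and 123 lower genes (336, 2.23% of the 15052 tested), or 172 higher and 193 lower when libraries were scaled by their totals only, while TLR-MSC-CM against resting MSC-CM gave 0 in edgeR, with 943 at an unadjusted p under 0.05. The comparisons share libraries, so their values are set side by side only. DUSP4 had a log2 fold change of −0.85 against TLR-MSC-CM (edgeR adjusted p = 0.00422) and −0.53 against resting MSC-CM, and FOXP3 −1.52 (edgeR adjusted p = 0.006) and −1.16. PDCD1LG2 had 0.65 (edgeR adjusted p = 0.00539) and 0.58, and C1S 0.83 (edgeR adjusted p = 0.00539) and 0.69. SPP1 and TSPO fell against resting MSC-CM but had −0.42 and −0.21 against TLR-MSC-CM with edgeR adjusted p-values of 0.182 and 0.42; whether these changes differ was not tested. Of the 27 macrophage identity genes 5 were higher than with TLR-MSC-CM (1.42% of all genes) and none lower. Among them were CD163 (60.5, 283 and 282 CPM with TLR-MSC-CM against 169, 624 and 288 CPM), MRC1, MERTK and LGMN, with log2 fold changes of 0.87, 0.61, 0.68 and 0.83. The innate sensors TLR5, TLR6, TLR8 and NLRC4 were also higher, by 0.95, 0.57, 0.69 and 0.89. In their list of 28 genes, 4 were higher past the threshold (1.42% of all genes) and none lower. The early response genes FOSB and NR4A1 were lower, by 1.10 and 0.94, beside DUSP4. In their list of 29 genes, 3 were lower past the threshold (0.817% of all genes) and none higher. The count against TLR-MSC-CM fell to 0 without the STING library of donor ORC (1732 genes at an unadjusted p under 0.05), to 21 without the TLR library of donor ORC and to 2 without all libraries of donor ORC, and edgeR gave 0 without the donor block (994 at an unadjusted p under 0.05).

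The change with STING-MSC-CM was compared between macrophages and the 2 other joint cells given the same media, synoviocytes and chondrocytes. The difference between the macrophage change and the mean change of the other two passed the threshold for 31 of 16584 genes (0.187%), 14 with a higher (0.0844%) and 17 with a lower value (0.103%) in macrophages, and leaving out donor PC left 0 (1333 at an unadjusted p under 0.05). Of the 80 genes called in macrophages 16 passed this test, which uses the same macrophage libraries. SDAD1 had log2 fold changes of 0.95 in macrophages, −0.06 in synoviocytes and 0.03 in chondrocytes (edgeR adjusted p of the difference = 0.00249). EMP1 had −0.75, 0.15 and 0.03 (0.00474), S100A6 −0.68, −0.03 and −0.05 (0.0161), and LSS 0.60, −0.01 and −0.06 (0.0286). In these genes the other cells lay near 0. LY5 differed in another way, with 0.68 in macrophages, −0.02 in synoviocytes and −1.16 in chondrocytes. C1S and C1R were higher in all 3 cell types, with 0.69, 0.51 and 0.70 and with 0.75, 0.58 and 0.52, and did not pass this test. The sterol list had medians of 0.20, −0.08 and −0.03 in macrophages, synoviocytes and chondrocytes, the interferon list 0.14, 0.15 and 0.82, and the complement list 0.25, 0.42 and 0.07.

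**Figure D5:**
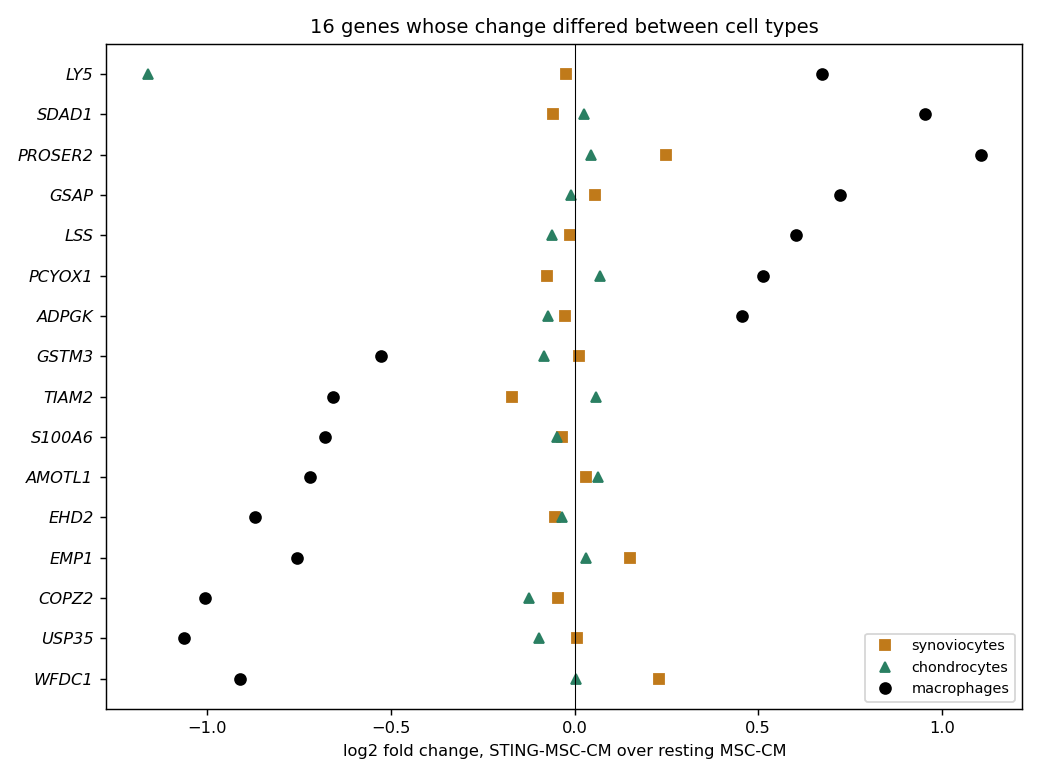
Log2 fold change, STING-MSC-CM over resting MSC-CM, in macrophages, synoviocytes and chondrocytes for the 16 genes that passed the test in macrophages and in the difference between cell types. Apart from LY5 in chondrocytes at −1.16, the stromal cells lie between −0.17 and 0.25, and the macrophages lie past 0.45 in either direction.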

How the data were processed

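Per the labels and the methods, the authors isolated RNA with the RNeasy kit, made libraries with the ABclonal kit, used Cutadapt (1.12) for trimming, STAR for alignment on EquCab3.0 and HTSeq (0.11.0) for counts per gene, and tested with DESeq2. The deposited values are raw counts of 20881 protein-coding genes, 3970 of them by Ensembl identifier only, without normalization. Whether counting used strand is not given in the sources used here, so overlapping genes and close paralogs are uncertain. The tables of the MSC were not analysed here.

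The 9 macrophage libraries of the 3 media were fitted together with edgeR 4.0.16 (R 4.3.3; TMM, quasi-likelihood test, MSC donor as a block), over genes with at least 10 counts in total. The block rests on the names in the labels, read as MSC donors. Deviations of resting and STING libraries from their group means correlated at 0.464 to 0.620 across genes within donors (3 pairs) and at −0.562 to 0.183 between donors. Deviations from a group mean cancel within the group, so the low values between donors follow from those within donors and are not separate evidence. Differences between cell types were fitted over 27 libraries with the block nested in the cell type. P-values were adjusted by Benjamini-Hochberg over every gene of a fit (threshold 0.05). The fitting script was tested on simulated data.

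Named genes were up to 15 per direction by smallest p among those past the threshold with one sign in 3 donors, up to 5 per direction by largest change past the study's thresholds, the members of each of 31 gene lists past the threshold with the 3 highest by CPM, and CSF3, IL4 and IL5, whose proteins the study measured. Only part of them is described, and some genes are not reported here. The comparison, the lists and the rule were chosen with earlier results of these data known, and every gene named outside the rule was chosen after its values were seen. Alternatives covered the block, the normalization, the filter, the tool (DESeq2 1.42.0, limma 3.58.1), the prior count and each library and donor left out. For the difference between cell types no single library was left out, and only part of the other alternatives was run.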

Additional observations from a re-analysis of the deposited data

Results flagged for a closer look

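For 16 genes the change with STING-MSC-CM in macrophages differed from the mean change in synoviocytes and chondrocytes by the interaction test (edgeR, adjusted p under 0.05 over 16584 genes), with 31 of 16584 genes (0.187%) past it in all. Each value here is the macrophage log2 change minus the mean log2 change of the other cell types. Among genes that rose in macrophages it was 1.27 for LY5, 0.97 for SDAD1, 0.96 for PROSER2, 0.70 for GSAP, 0.64 for LSS, 0.51 for PCYOX1 and 0.50 for ADPGK. Among genes that fell in macrophages it was −1.03 for WFDC1, −1.02 for USP35, −0.92 for COPZ2, −0.85 for EMP1, −0.83 for EHD2, −0.77 for AMOTL1, −0.64 for S100A6, −0.60 for TIAM2 and −0.49 for GSTM3. The groups hold 3 libraries each, and for this test whole donors but not single libraries were left out, so single outlying libraries were not tested.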

How the results depend on the processing

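All 80 genes called between STING-MSC-CM and resting MSC-CM kept their direction in all 22 alternatives. The alternatives refit the same libraries or part of them, and all 80 had 1 sign in the 3 donors, so this is no separate support. The genes were still called in 987 of 1760 combinations of gene and alternative. The count of 80 moved to 0 without the replicate block (717 genes at an unadjusted p under 0.05 in edgeR), 348 in DESeq2 with the block, 9 in DESeq2 without it, 43 with filterByExpr, 221 without a filter and 361 when only the 6 compared libraries were fitted. It was 0 to 339 with 1 library left out and 0 to 80 with 1 donor left out. Genes past the study's thresholds went from 56 to 23 with filterByExpr, 85 without the block and 10 at a prior count of 2, and were 56 to 66 with 1 library left out. Against TLR-MSC-CM the count of 336 moved to 0 without the block (994 at an unadjusted p under 0.05), 750 in DESeq2 with it, 31 in DESeq2 without it, 619 without a filter and 72 with only the compared libraries, and was 0 to 437 with 1 library and 2 to 224 with 1 donor left out. The 31 genes that differed between cell types became 0 without the block (811 at an unadjusted p under 0.05) and 243 in DESeq2 with it, and were 0 to 38 with 1 donor left out. The causes of these shifts were not tested.

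The same was followed for 253 other genes, those of the naming rule and the list members with an unadjusted p under 0.05 in the main fit. Of these, 57 were called in at least 1 alternative and 38 changed sign in at least 1. Most of the 842 list genes tested were not followed, so these counts do not describe the lists. The list medians for sterol synthesis (0.18 to 0.22), complement (0.17 to 0.31), ribosomal proteins (−0.22 to −0.07), cytokines (−0.37 to −0.15), S100 genes (−0.41 to −0.26) and early response genes (−0.22 to −0.16) kept their sign in all 22 alternatives, whereas that of interferon-stimulated genes ran from −0.01 to 0.30. Depth limits what can be said of genes near 3 counts in a library.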
